A study of Mus musculus with 4 samples.

Results

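The isoforms described here were spliced transcripts that used at least 1 splice site outside the reference annotation. They were chosen as the isoforms that the authors' SQANTI3 run placed in its NNC class (a new splice site in a known gene) and that had at least 2 exons in the deposited transcript models. The choice gave 9958 of 68012 isoforms (14.6%), in 3888 of the 10482 genes with an isoform (37.1%), and no expression value entered it. The other classes were full splice matches (FSM, 18240 isoforms), incomplete splice matches (ISM, 32615), new combinations of known sites (NIC, 5839) and single-exon isoforms (1360). Each isoform is named by the authors' identifier and its gene.

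The data were full-length cDNA reads of 161 single mouse cells on the PacBio platform, counted by unique molecular identifiers (UMIs) and deposited per isoform as copies per 100,000 UMIs of a cell. C57BL/6J females of 6 to 8 weeks were mated with DBA/2NCrl males, a cross that the labels write as DBA/2J x C57BL/6J. Cells were taken, in hours after hCG injection, as oocytes at 20, zygotes at 22 to 24, early 2-cell (E2C) blastomeres at 30 to 32, late 2-cell (L2C) blastomeres at 46 to 48, 4-cell blastomeres at 54 to 56, 8-cell blastomeres at 68 to 70, 16-cell and 32-cell blastomeres at 78 to 80, and blastocyst cells at 88 to 90. Mouse embryonic stem cells (mESC) were of the male E14Tg2A line, a single line of 5 cells, and no group carried a deletion or a drug treatment in the labels. The cell names gave 43 replicates, namely 10 oocytes and 9 zygotes, then 5 embryos at E2C, 6 at L2C, 5 at the 4-cell stage and 4 each at the 8-cell and 16-cell stages. The 22 32-cell, 13 blastocyst and 5 mESC cells named no embryo and are given as ranges and medians. All these cells were sequenced in 3 runs, which the cell names do not give. The run was used only among oocytes and zygotes, and its part in the steps from zygote on was not tested. A second table held UMI counts of 16 samples of oocytes that were intact (4) or split into 1/2 (6) or 1/4 (6).

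Isoform UMIs per cell ran from 3385 to 248254, with stage medians between 18753 (mESC) and 161196 (zygote). The summed level of 5 oocyte markers had a median of 3547 copies per 100,000 in oocytes. It had a median of 198.7 copies in 16-cell blastomeres, 19.2 in 32-cell blastomeres, 271.6 in blastocyst cells and 132.0 in mESC, so oocyte transcripts were found at a low level in late cells too, and their part in the values of late stages was not tested. Of 5 markers of the 2-cell stage, all were at 0 in blastocyst cells and mESC. Markers of cumulus and granulosa cells summed to at most 10.8 copies in any cell, with 2 of 8 (Ptx3 and Amh) outside the table.

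An intron is recognised by a donor site at its 5′ end, which nearly always begins with GT, and by an acceptor site at its 3′ end, which ends in AG after a stretch rich in pyrimidines. A transcript can gain an unannotated site when transcription starts at another promoter (a new first exon), when a site close to a known one is used (an alternative donor or acceptor), or when an exon or intron is added. Mouse oocytes are known for transcripts that begin in retrotransposon sequence, and most maternal RNA is cleared while the zygotic genome becomes active at the 2-cell stage.

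The sequences below show 5 of the readable new sites that carried the most UMIs, and the new acceptor of B020004C17Rik, a transcript described further on. They were read from GENCODE M21 transcript sequences (GRCm38), 30 bases each, in the direction of the transcript, and the Uchl1 window was covered in part only by a transcript of the other strand. Sites that no M21 transcript or RefSeq promoter window covers could not be read. In the first 3, the first capitals mark the annotated donor and the second capitals the new donor. In the next 3, the capitals mark the new site, GT for a donor and AG for an acceptor.
Uchl1 donor, chr5:66676317-66676346, + strand: cccgagGTaagcataGCtgctgggtcgctt
Hnrnpk donor, chr13:58394052-58394081, - strand: ccacagGTtgagtatcaataatGTtaataa
Mrpl33 donor, chr5:31614017-31614046, + strand: tctcttGTaagtcgGTctgaggcggcggca
Btg4 acceptor, chr9:51117856-51117885, + strand: attgcttcttttaaaggtAGatgggagaac
Mdm4 donor, chr1:132991682-132991711, - strand: cgtgtcctgcttGTaagaaagagattcagt
B020004C17Rik acceptor, chr14:57017223-57017252, + strand: tgtttgcatcttctggacAGcttcctggga

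The new donor of Uchl1, which encodes a deubiquitinating enzyme abundant in oocytes, lay 9 bases downstream of the annotated one, began with GC in place of GT, and was used by 5 isoforms with 6259 UMIs. The new donor of Hnrnpk, which encodes an RNA-binding protein that takes part in splicing, lay 16 bases downstream and was used by 44 isoforms, the most for any new site, with 3051 UMIs. The donor of Mrpl33, a protein of the mitochondrial ribosome, lay 8 bases downstream and was used by 1 isoform with 1314 UMIs. The new acceptor of Btg4, an adaptor for the removal of maternal mRNA, lay 48 bases downstream of the nearest known acceptor (7 isoforms, 1047 UMIs). The new donor of Mdm4, a regulator of p53, lay 2803 bases downstream of the nearest known donor (28 isoforms, 1013 UMIs).

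The isoforms with new sites were many but low. They held 297861 of 6855121 isoform UMIs (4.35%), against 68.2% for FSM isoforms and 15.1% for ISM isoforms. Their median was 10 UMIs over all cells (quartiles 7 to 19), seen in 8 cells, whereas FSM isoforms had a median of 23 UMIs in 17 cells. The authors kept isoforms seen in at least 5 cells, and 2025 of the isoforms with new sites (20.3%) sat exactly at that limit, against 13.6% of all isoforms. Their median length was 1143 bases (quartiles 808.0 to 1596, range 195 to 5392), below the 1466 bases of FSM isoforms. They had a median of 5 exons (quartiles 3 to 7, at most 33), as FSM isoforms did, and 1126 (11.3%) had just 2 exons.

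Most genes had few such isoforms, while a small set of genes had many. Of the 3888 genes, 1901 had 1 isoform with a new site, 1485 had 2 to 4, 502 had at least 5 and 131 at least 10. Hnrnpk had 44 of them, which held 85.5% of its 3567 UMIs. Mdm4 had 36, with 28.6% of its UMIs, and the non-coding gene 3110009E18Rik had 36, with 70.3%. H1foo, the linker histone of oocytes, had 34, but they held only 554 of its 56513 UMIs (0.980%). Btg4 had 20 with 3.56% of its UMIs, and Oog1, a leucine-rich repeat gene of oocytes, had 22 with 35.6%. In 814 genes all isoforms in the table had a new site, and in 302 of the 2426 genes with such an isoform and at least 100 UMIs the most abundant isoform had one. Across these 2426 genes the median share of UMIs in isoforms with a new site was 4.03%. Long non-coding genes had them more often than protein-coding genes: 58.5% of 820 long non-coding genes against 35.2% of 9553 protein-coding genes, with 28.6% against 3.86% of their UMIs.

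The splice sites of these isoforms were compared with GENCODE M21. Of 131488 sites used by the other classes, 131465 were in this annotation. The isoforms with new sites used 44736 sites, of which 9240 (20.7%) were in neither the annotation nor another class. These were 5834 donors (63.1%) and 3406 acceptors. A single new site was found in 7432 isoforms, 2 in 1725 and at least 3 in 786, while 15 had none by this count. New donors alone were seen in 5387 isoforms, new acceptors alone in 2124 and both in 2432. The new donors were mostly at the start of the transcript, with 4316 (74.0%) in a first intron, and 1526 new acceptors (44.8%) were in a last intron. By place, 4918 new sites (53.2%) lay in an annotated intron, 1782 (19.3%) in a non-coding part of an exon, 1532 (16.6%) outside genes and 1008 (10.9%) in a coding exon. Most new sites, 7016 (75.9%), were used by 1 isoform.

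Sorted by what the new site made, the largest kind was a new first exon, with 3429 isoforms (34.4%) and 46.8% of the UMIs. Alternative donors followed with 1910 isoforms (19.2%; 18.8% of UMIs) and alternative acceptors with 1387 (13.9%; 9.38%). New last exons were found in 720 isoforms, new internal exons in 523, new introns within an exon in 345, and 1629 isoforms held more than 1 kind. Isoforms with a new last exon were the shortest kind that held over 500 isoforms, with a median of 888.0 bases against 1180 for new first exons.

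**Figure D1:**
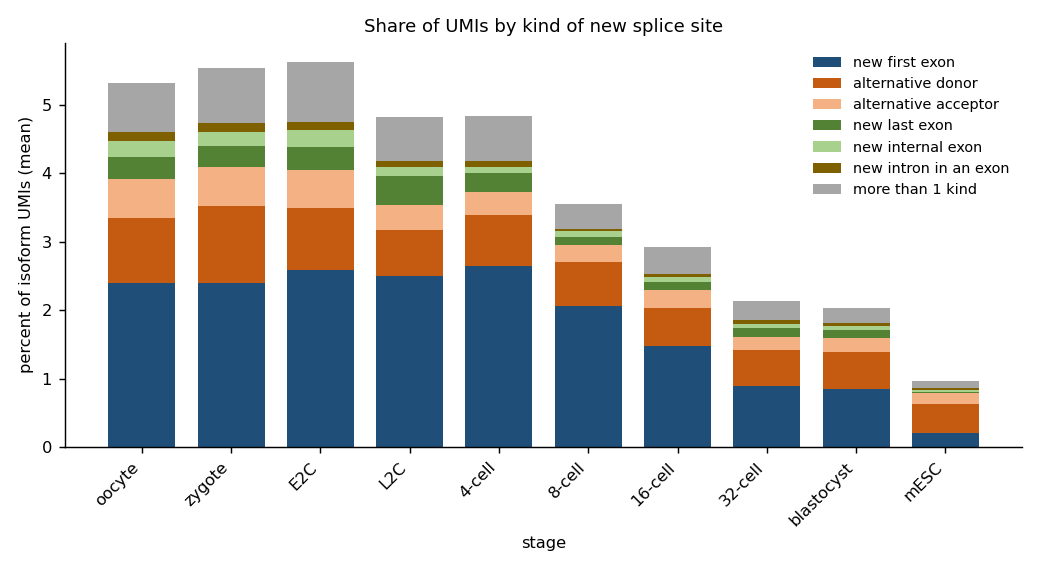
Mean percent of isoform UMIs held by isoforms with new splice sites at each stage, stacked by kind of new site, with every cell thinned to 3000 UMIs. New first exons took 2.40 percent of UMIs in oocytes and 0.211 percent in mESC, while alternative donors and acceptors together took 1.51 and 0.575 percent.

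Few new sites lay next to a known one. The median distance to the nearest known site of the same type was 738.0 bases for donors and 856.5 bases for acceptors, and 184 donors (3.15%) and 214 acceptors (6.28%) were within 10 bases. Among acceptors within 10 bases, 125 (58.4%) were a multiple of 3 bases away, and the commonest shifts were 6 bases downstream (45 sites) and 3 bases downstream (43). Among donors within 10 bases, 59 (32.1%) were a multiple of 3 away, and the commonest shift was 4 bases downstream (37 sites). Within 30 bases the share of multiples of 3 was 49.8% of 468 acceptors and 38.8% of 503 donors.

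**Figure D2:**
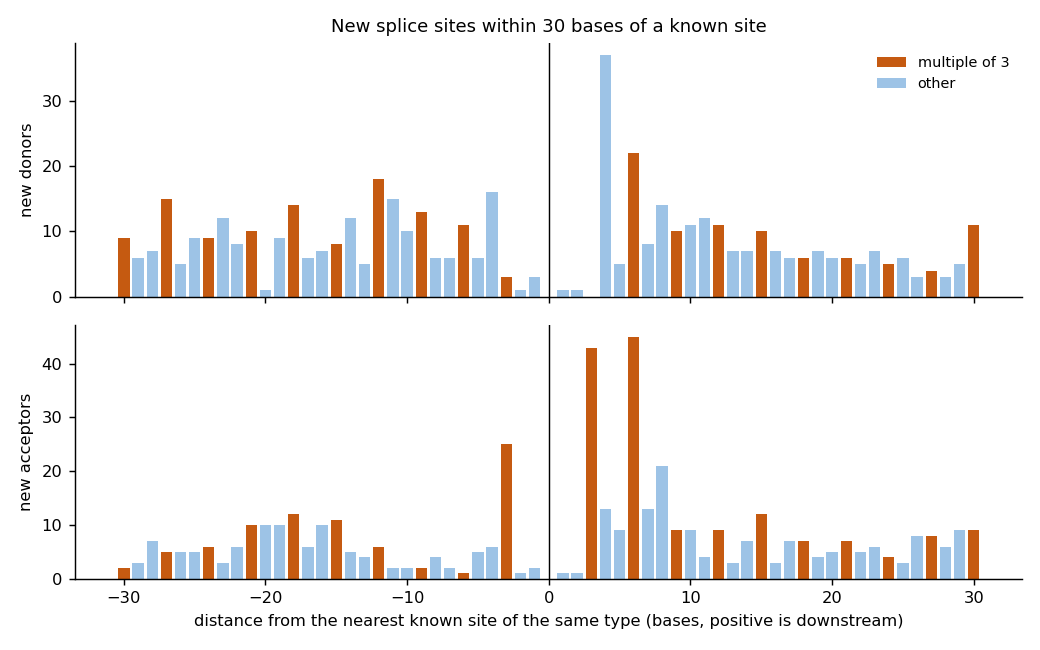
Number of new donors and new acceptors by distance in bases from the nearest known site of the same type (upstream negative, downstream positive), with multiples of 3 in another colour. The highest acceptor bars were at 6 and 3 bases downstream (45 and 43 sites) and the highest donor bar at 4 bases downstream (37 sites).

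The letters at the readable new sites differed in part from those at annotated sites. Both dinucleotides could be looked for on the transcript strand only, and the new sites that could be read were 1619 donors and 1305 acceptors with enough flanking sequence. Of these donors, 93.0% began with GT and 6.98% with GC, against 98.7% and 1.18% of 14588 annotated donors used by the other classes. The longer donor motif GTNNG was found at 59.4% of new GT donors and 77.6% of annotated ones, and its special case GTAAG at 10.8% and 24.4%. The 11 bases before the acceptor AG were 67.3% pyrimidines at new and 77.5% at annotated acceptors (12286). Readable sites were 28.2% of new donors and 42.6% of new acceptors, and no test was made of these shares. The annotated sites were likewise only those that could be read. The authors had removed artifact isoforms with a SQANTI3 filter, and whether that filter acted on these letters was not tested.

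The first comparison asked how much of the RNA of a cell lay in isoforms with new sites from stage to stage, with each cell thinned to 3000 isoform UMIs. Oocytes had a mean share of 5.34% ± 0.273 (SD, n = 10), zygotes of 5.56% ± 0.395 (n = 9) and E2C embryos of 5.65% ± 0.465 (n = 5). It was 4.81% ± 0.919 (n = 6) in L2C, 4.84% ± 0.714 (n = 5) in 4-cell, 3.54% ± 0.280 (n = 4) in 8-cell and 2.93% ± 0.615 (n = 4) in 16-cell embryos. The share was thus lowest in the latest embryos, and it was lower again in single cells, with medians of 2.12% (1.39 to 2.71) in 32-cell blastomeres, 2.00% (1.71 to 2.36) in blastocyst cells and 0.933% (0.887 to 1.04) in mESC. With just 5 mESC and a limit of 5 cells per isoform, an isoform private to mESC had to be in every one of them to be kept.

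Oocytes and zygotes together had 5.44% ± 0.346 (n = 19) and E2C to 16-cell embryos 4.47% ± 1.14 (n = 24), a difference of -0.977 points (two-sided permutation test with 100000 resamples, p = 7.00e-04). The difference was smaller than the SD of the later embryos, among which E2C embryos had a higher mean than oocytes and zygotes. The limit of 5 cells per isoform was applied before thinning, and oocytes and zygotes were the deepest cells (medians of 131506 and 161196 UMIs). Rare isoforms could thus pass it more easily through them. The part of this limit in the shares and numbers of isoforms by stage was not tested. No single step between adjacent stages passed after adjustment over 6 steps. The largest was 4-cell to 8-cell, at -1.30 points (two-sided exact permutation p = 0.0317, adjusted 0.190), and E2C to L2C differed by -0.832 points (exact p = 0.117, adjusted 0.234). For 8-cell to 16-cell the smallest p that 4 against 4 embryos allow is 0.0286. The adjacent steps rested in part on 1 isoform of the ribosomal protein gene Rpl41. Without it the share was 5.62% in E2C, 3.86% in L2C, 3.80% in 4-cell and 2.18% in 8-cell embryos. The E2C to L2C difference was then -1.76 points and the 4-cell to 8-cell difference -1.63 points (exact permutation tests, adjusted p = 0.0476 for each). The sequencing run of oocytes and zygotes is given in the study's lists of cells, not in the labels. By these runs the zygote share exceeded the oocyte share by 0.131 points in run 1, 0.560 in run 2 and 0.0550 in run 3, against 0.224 pooled.

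The number of different isoforms with new sites in a cell at 3000 UMIs showed the steps more clearly. Oocytes had 143.1 ± 8.28 of them (SD, n = 10), zygotes 146.2 ± 9.59 (n = 9) and E2C embryos 151.2 ± 10.9 (n = 5). In L2C embryos it was 99.4 ± 16.1 (n = 6), 51.8 fewer than in E2C (two-sided exact permutation p = 0.00433, adjusted 0.0260). It was 95.0 ± 9.65 (n = 5) in 4-cell and 59.0 ± 5.63 (n = 4) in 8-cell embryos, a difference of -36.1 (exact p = 0.0159, adjusted 0.0476). The 4-cell (83.1 to 106.0) and 8-cell embryos (54.0 to 64.4) did not overlap, and this p is the lowest that 5 against 4 embryos allow. With any 1 of these 9 embryos left out the call was lost, though the difference stayed between -39.1 and -33.3. The lowest p that fewer embryos allow is higher (0.0286 for 4 against 4), so these losses came from group size. In 16-cell embryos it was 57.7 ± 15.6 (n = 4), and the medians were 45.1 in 32-cell blastomeres, 48.4 in blastocyst cells and 26.8 in mESC. The number of isoforms of all classes at the same depth was 1715 ± 43.1 in E2C, 1740 ± 62.2 in L2C, 1742 ± 45.7 in 4-cell and 1582 ± 21.9 in 8-cell embryos. From 4-cell (1668 to 1788) to 8-cell embryos (1569 to 1615) the total was thus also lower, with no overlap.

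**Figure D3:**
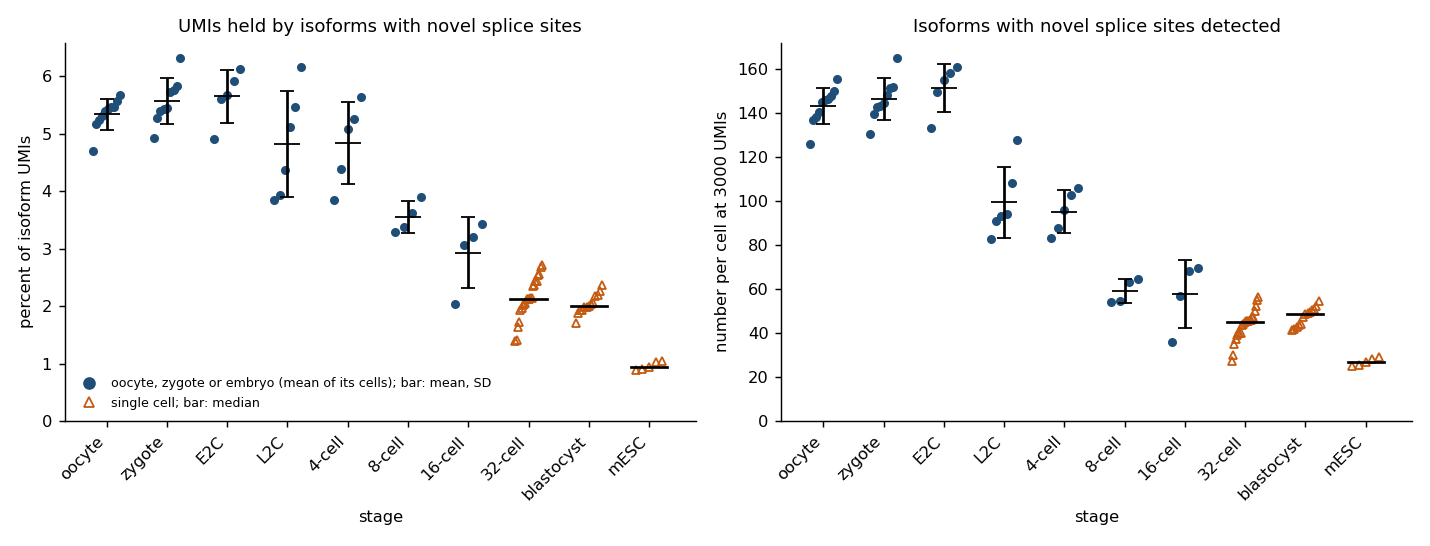
Left, percent of isoform UMIs held by isoforms with new splice sites and right, number of them detected in a cell, both at 3000 UMIs per cell and by stage, with 1 dot per oocyte, zygote or embryo (mean and SD as bars) and triangles for single cells that name no embryo (median as a line). Oocyte means were 5.34 percent and 143.1 isoforms, and mESC medians 0.933 percent and 26.8 isoforms.

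By kind, new first exons held 2.40% of UMIs in oocytes, 2.40% in zygotes, 2.59% in E2C, 2.49% in L2C, 2.65% in 4-cell, 2.06% in 8-cell and 1.47% in 16-cell embryos, and 0.211% on average in mESC. Alternative donors and acceptors held 1.51%, 1.69%, 1.45%, 1.04%, 1.07%, 0.886% and 0.83% at the same stages, and 0.575% in mESC. None of the 12 steps tested for these kinds passed adjustment. The lowest adjusted p was 0.0519, for alternative sites from E2C to L2C (1.45% ± 0.153, n = 5, against 1.04% ± 0.115, n = 6, two-sided exact permutation test). Its unadjusted p of 0.00433 is the lowest that 5 against 6 embryos allow, so as the only low p it could not pass adjustment over 12 steps. The E2C (1.25 to 1.62%) and L2C embryos (0.873 to 1.20%) did not overlap.

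Each isoform was also placed at the stage of its highest mean level. Oocytes, zygotes and E2C embryos took 21%, 18.1% and 20.9% of the isoforms with new sites, against 12.9%, 10.9% and 17.5% of all isoforms. The mESC took 320 (3.21%), against 8.48% of all and 18.1% of FSM isoforms. Of the isoforms with new sites 20.3% sat exactly at the limit of cells per isoform, against 8.95% of FSM isoforms. Rare isoforms could pass this limit more easily through the deep oocytes and zygotes, and its part in these percentages was not tested. New last exons were highest at L2C in 20.8% of cases, against 9.77% of new first exons.

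The second comparison asked which single isoforms differed between adjacent stages, by limma over 29409 isoforms with at least 1 copy in at least 4 embryos. A call needed a change over 1 on the scale log2(copies per 100,000 + 1), which understates the change of low isoforms, and a Benjamini-Hochberg adjusted p under 0.05. Of the 9958 isoforms with new sites 3310 could be tested, and the sequencing run was not in the fit. Values are shares of the UMIs of a cell, so that less RNA of an isoform and more RNA of other genes cannot be told apart. Most calls fell between E2C and L2C, where 358 isoforms rose and 605 fell (29.1% of those tested, against 27.7% of all isoforms). The share that fell was 18.3%, against 14.2% of all isoforms, and the share that rose was 10.8%, against 13.5%. FSM isoforms went the other way at this step, with 20.7% rising and 14.9% falling, as did single-exon isoforms (17.7% and 14.9%). ISM isoforms also fell more often than they rose (7.90% rising and 12.7% falling), and NIC isoforms were near even (12.7% and 13.3%). More falls than rises were thus not particular to isoforms with new sites.

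The other steps had fewer calls. From oocyte to zygote 30 isoforms were called (27 rose, 0.906%, against 1.41% of all isoforms), and only 2 were called when oocytes and zygotes were fitted by themselves, with or without the run as a term. From zygote to E2C 55 rose and 77 fell (3.99%, against 4.42%, of which 1.88% rose and 2.55% fell). From L2C to 4-cell 47 rose and 49 fell (2.90%, against 2.25%, of which 1.36% rose and 0.891% fell). This step had 43 calls without 4-cell replicate 5 and 45 without 4-cell replicate 4. From 4-cell to 8-cell 44 rose and 175 fell (6.62%, against 6.39%), and without 4-cell replicate 5 there were 134 calls. From 8-cell to 16-cell 8 rose and 18 fell (0.785%, against 0.779%), with 11 to 62 calls when 1 embryo was left out. By direction, 5.29% fell and 1.33% rose from 4-cell to 8-cell, against 3.55% and 2.83% of all isoforms.

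The split of E2C to L2C calls moved with the scaling. edgeR on the recovered UMIs called 479 rises and 869 falls, and DESeq2 called 75 rises and 556 falls, so that 11.9% of DESeq2 calls were rises against 37.2% of limma calls. With DESeq2 size factors the median change of all isoforms was -0.35 on the log2 scale. Among kinds, limma called 154 rises and 294 falls of 1313 new first exons tested, 66 and 96 of 649 alternative donors, 27 and 52 of 384 alternative acceptors, and 43 and 35 of 251 new last exons.

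**Figure D4:**
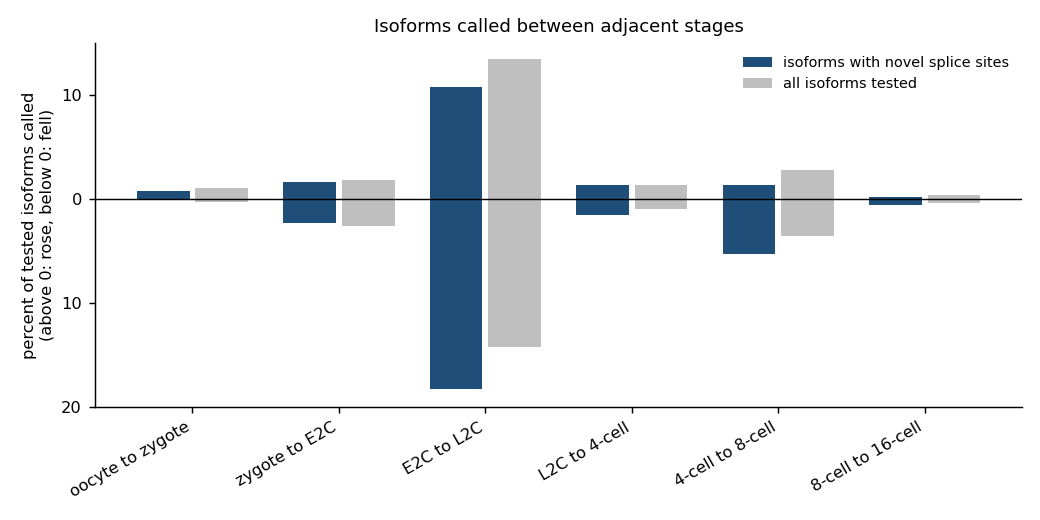
Percent of tested isoforms that rose or fell between adjacent stages (limma, log2 change over 1 and adjusted p under 0.05), for the 3310 isoforms with new splice sites and for all 29409 isoforms. E2C to L2C had the highest bars, with 10.8 percent rising and 18.3 percent falling against 13.5 and 14.2 percent of all isoforms.

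The isoform with the most UMIs was Rpl41 PB.9518.1, of a gene for a very small ribosomal protein. It had 30831 UMIs in all 161 cells, 68.0% of the UMIs of Rpl41, while the leading FSM isoform had 11516. It ran over chr10:128548101-128551972 (- strand, GRCm38) with 4 exons, and its new donor lay outside annotated genes at position 128551634, 2546 bases upstream of the nearest known donor and shared by 10 isoforms. Its level in E2C embryos was 9.44, 18.9, 22.6, 28.0 and 35.1 copies per 100,000. In L2C embryos it was 541.4, 759.5, 907.9, 914.5, 1151 and 1165 copies, so the groups lay far apart. The log2 change was 5.42 (SE 0.40, limma adjusted p = 8.29e-17). It had the highest mean in 8-cell embryos, at 1337 copies (1181 to 1474), and then 788.1 in 16-cell embryos, with medians of 549.1 in 32-cell blastomeres, 343.9 in blastocyst cells and 29.9 in mESC. A relative with a further new exon, Rpl41 PB.9518.5, followed at a lower level, with a log2 change of 5.16 (SE 0.51, adjusted p = 3.54e-12). Isoforms with new sites made up 46.3% ± 9.57 of Rpl41 UMIs in E2C and 93.5% ± 2.95 in L2C embryos.

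Rplp0, a protein of the ribosomal stalk, had a pair of isoforms with a shared new donor at chr5 position 115557416, outside genes and 2123 bases upstream of the nearest known one. PB.58793.18 spans chr5:115557315-115563520 and PB.58793.1 chr5:115557227-115563734 (+ strand), each with 7 exons. Both rose from E2C to L2C, by 3.92 (SE 0.86, adjusted p = 2.44e-04) and 3.25 (SE 0.81, adjusted p = 0.00118) on the log2 scale. They did not vary together in all embryos of a stage. L2C replicate 1 had 0 copies of PB.58793.18 and 72.7 of PB.58793.1, while L2C replicate 3 had 117.5 and 2.48. At every stage from L2C to 16-cell, replicate 1 had the lowest level of PB.58793.18 and replicate 2 the lowest level of PB.58793.1. In 32-cell blastomeres the medians were 20.8 and 0 copies, and in blastocyst cells 0 and 19.6. In oocytes PB.58793.18 differed between sequencing runs, as described at the end. The part of the run in the differences between these later embryos and cells was not tested. All isoforms of Rplp0 with new sites together held 22.1% ± 12.9 of its UMIs in E2C, 60.2% ± 20.8 in L2C, 63.6% ± 12.7 in 4-cell and 19.5% ± 6.53 in 8-cell embryos.

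Usp10, a deubiquitinating enzyme, had a short 2-exon isoform, PB.73818.13 (chr8:119910404-119918837, + strand), that ended in a new last exon inside an annotated intron, 13507 bases upstream of the nearest known acceptor. Its level was 0, 0.780, 0.834, 2.74 and 5.46 copies in E2C embryos and 24.2, 39.2, 78.0, 85.8, 86.8 and 114.9 in L2C embryos. A lack of overlap was a condition for being named as one of the largest changes of a step. The log2 change was 4.97 (SE 0.54, adjusted p = 5.29e-11). In 4-cell embryos it was 17.5, 37.9, 38.8, 38.9 and 45 copies, and in 8-cell embryos 0, 2.49, 3.03 and 3.5, a log2 change of -3.19 (SE 0.54, adjusted p = 4.37e-05). It was thus high in L2C and 4-cell embryos alone among the 7 stages with embryos. Isoforms with new sites held 90.6% ± 4.72 of Usp10 UMIs in L2C embryos and 24.1% ± 9.27 in 8-cell embryos.

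Gpbp1, a protein that binds GC-rich promoters, had a 12-exon isoform with a new first exon, PB.22119.100 (chr13:111426161-111498722, - strand), with the same window of stages. It had 0 to 0.929 copies in E2C embryos, 8.08 to 24.1 in L2C and 3.28 to 23.5 in 4-cell embryos. In 8-cell embryos it had 0, 0, 0 and 0.459 copies (log2 change -3.61, SE 0.36, adjusted p = 9.66e-11). B020004C17Rik, one of the genes that burst at the 2-cell stage, had PB.23994.7 with the acceptor printed above, 119 bases downstream of the known one. It had 4.16, 7.08, 10.7, 13.6 and 16.1 copies in 4-cell embryos and 0 in all 4 8-cell embryos, where 3 UMIs of 623331 would be 0.481 copies, so it was at least 21.4-fold lower (limma log2 change -3.19, adjusted p = 5.63e-08).

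The largest falls from E2C to L2C were of isoforms that were already present in oocytes. Tcstv1, of a gene family active at the 2-cell stage, had PB.22351.3 (chr13:119893339-119896341, - strand) with a new first exon and a new acceptor, and 91.7% of the UMIs of its gene. It had 36.4 to 47.8 copies in E2C embryos and 0, 0, 0, 0, 1.24 and 3.28 in L2C embryos (log2 change -4.84, SE 0.55, adjusted p = 2.28e-10). 3110009E18Rik PB.3147.98 (chr1:120160007-120188265, + strand) had 23.9, 23.9, 29.4, 31.4 and 45.3 copies in E2C embryos and 0 in 5 of 6 L2C embryos, with 8.08 in replicate 1 (log2 change -4.70, SE 0.44, adjusted p = 4.46e-13). Pcdh15, a cadherin best known from inner ear hair cells, had a 2-exon isoform with a new last exon, PB.7445.3 (chr10:73821737-73823340, + strand), with 97.2% of the UMIs of its gene. Its acceptor lay 108140 bases from the nearest known one. It had 62.6 copies in oocytes, 52.9 in zygotes, 35.9 to 51.1 in E2C embryos and 0, 0, 0, 0.965, 3.28 and 4.15 in L2C embryos (log2 change -4.52, SE 0.46, adjusted p = 5.91e-12). Gm11381 PB.19569.2 (chr13:32379856-32387000, - strand) fell likewise, from a mean of 56.7 to 1.55 copies (log2 change -4.44, SE 0.44, adjusted p = 3.71e-12).

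**Figure D5:**
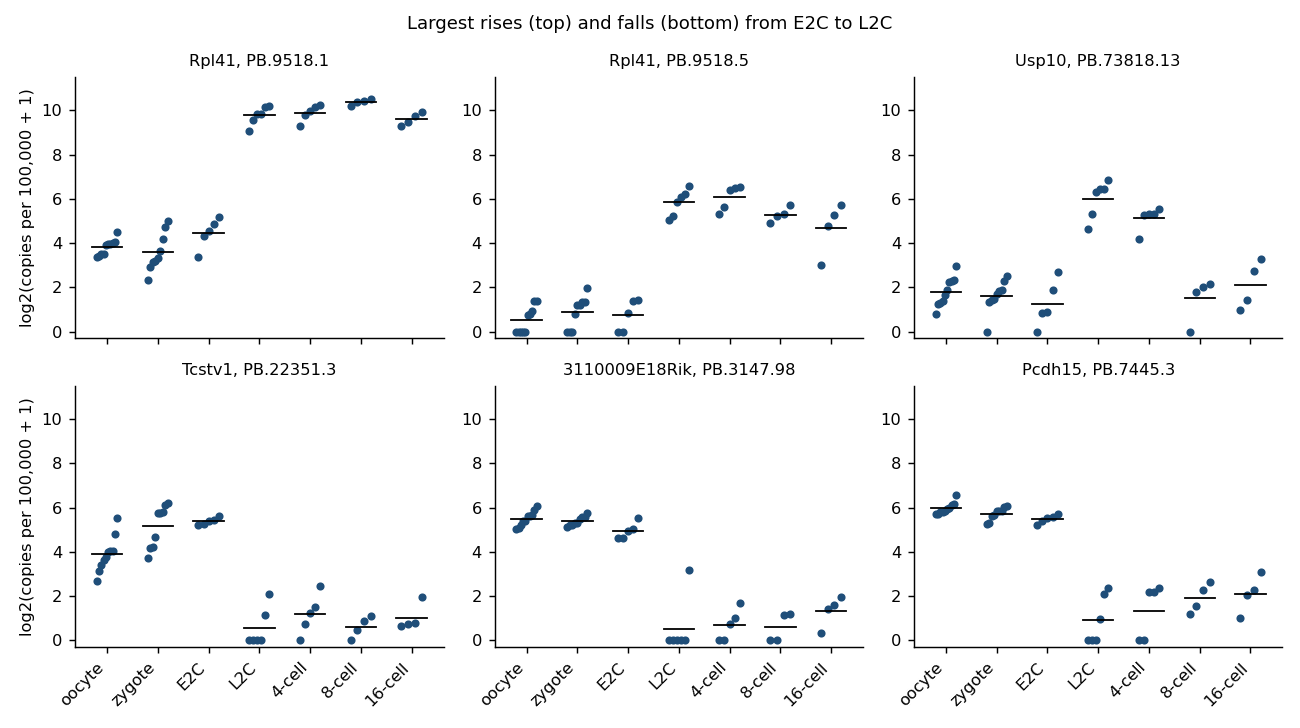
Level of 6 isoforms with new splice sites in each oocyte, zygote and embryo, as log2(copies per 100,000 + 1), by stage. Rpl41 PB.9518.1, Rpl41 PB.9518.5 and Usp10 PB.73818.13 were higher in L2C than in E2C embryos, and Tcstv1, 3110009E18Rik and Pcdh15 lower, with log2 changes between -4.84 and 5.42.

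Uchl1 PB.57179.1 (chr5:66675886-66687250, + strand), with the GC donor printed above, was the second in UMIs (6179) and held 71.0% of the UMIs of Uchl1. It had 108.8 ± 56.9 copies in oocytes (n = 10) and 223.0 ± 77.7 in zygotes (n = 9), a log2 change of 1.13 (SE 0.26, limma adjusted p = 0.00446), but the groups overlapped. By run, the oocytes of run 1 had 75.8 to 95.1 copies and its zygotes 219.6 to 319.7, while the oocytes of run 3 had 90.8 to 112.1 and its zygotes 101.8 to 178.0. The 1 oocyte of run 2 had 268.3 copies and its 2 zygotes 255.9 and 272.6, so no rise was seen in that run. With oocytes and zygotes fitted alone and the run as a term, the log2 change was 0.94 and the adjusted p 0.0616, and without the run it was 1.13 and 0.0523. From E2C to L2C the isoform fell from 104.0 to 14.4 copies (log2 change -3.17, SE 0.50, adjusted p = 5.71e-07). The share of Uchl1 UMIs in isoforms with new sites had means between 56.6% and 77.7% at the 7 stages. Mrpl33 PB.56307.3 (chr5:31613890-31622645, + strand), with 81.3% of the UMIs of its gene, rose from E2C to L2C (log2 change 1.96, SE 0.55, adjusted p = 0.00386). The E2C (0.703 to 4.29 copies) and L2C embryos (0 to 22.6) overlapped. It had means of 15.4 copies in 4-cell and 47.4 in 8-cell embryos, a step that was not called (limma adjusted p = 0.0803).

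Smaller changes passed at other steps. Tpgs2, a subunit of the tubulin polyglutamylase complex, had PB.35636.33 with a new first exon at 1.95 to 13.3 copies in zygotes and 24.4 to 35.8 in E2C embryos (log2 change 2.16, SE 0.38, adjusted p = 5.40e-05). It was at 0 in all 4-cell and 8-cell embryos, where 3 UMIs would be 0.753 and 0.481 copies. Mbl2, a mannose-binding lectin, had PB.38829.10 (chr19:30234667-30239783, + strand) at 12.1 to 22.1 copies in zygotes and 4.64 to 7.49 in E2C embryos (log2 change -1.20, SE 0.30, adjusted p = 0.00657). 2310040G24Rik PB.63022.16 had 0 to 17.3 copies in L2C and 22.7 to 31.1 in 4-cell embryos (log2 change 2.02, SE 0.55, adjusted p = 0.0265). Rps15, a ribosomal protein, had PB.7776.37 at 2.14 to 8.57 copies in 4-cell and 9.65 to 38.9 in 8-cell embryos (log2 change 1.47, SE 0.39, adjusted p = 0.00936). The calls of 2310040G24Rik and Rps15 were lost with edgeR (adjusted p = 0.0752 and 0.0580) and with DESeq2 (0.111 and 0.0518), and that of Mbl2 with a pseudocount of 0.1 (0.257).

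Gene groups were read at E2C to L2C, where the calls were, beside the 10.8% that rose and 18.3% that fell of all isoforms with new sites tested. Of 67 isoforms of cytosolic ribosomal protein genes, 26 rose and none fell (30 and 0 with edgeR, 9 and 0 with DESeq2), among them 4 of Rpl41, 3 of Rpl11 and 3 of Rplp0. Reads of ribosomal protein genes can also match their many processed copies, so their counts are uncertain. Of 15 isoforms of proteasome subunits 4 rose (Psma7, Psmb2, Psmb10 and Psmd1) and none fell, but DESeq2 called none. Of 32 isoforms of oxidative phosphorylation genes 7 rose, 3 of them of Ndufb2, and 5 fell, 2 of them of Ndufaf2, a complex I assembly factor. At this step edgeR called 9 rises and 11 falls in this group, and DESeq2 1 and 3. Of 9 isoforms of translation initiation factor genes 2 rose (Eif5a and the inhibitor Eif4ebp1) and 1 fell (Eif1b), with 3 and 1 by edgeR and none by DESeq2.

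Of 76 isoforms of oocyte genes 1 rose, of the zona pellucida gene Zp3, and 20 fell (2 and 25 with edgeR, 0 and 19 with DESeq2). The falls included 6 of Btg4, 4 of Oog1, 3 of Nlrp9c and 2 of Oosp3, a secreted oocyte protein. Oosp3 PB.38236.96 had 17.8 ± 3.55 copies in oocytes, 19.3 ± 4.67 in E2C and 0.591 ± 1.02 in L2C embryos (n = 10, 5 and 6). The list of 2-cell burst genes took every Obox gene by symbol, whatever the stage at which it is made. Of its 18 isoforms 3 rose (B020004C17Rik, Obox4-ps35 and Obox6) and 8 fell. All the falls were of Obox genes, 3 of Obox1, 3 of Obox2 and 1 each of Obox5 and Obox7, so they do not describe the other genes of the list. Obox genes are homeobox genes with near-identical copies between which reads may be split. Obox2 PB.65419.15 had 8.58 ± 2.86 copies in E2C and 0 in L2C embryos, where 3 UMIs would be 0.718 copies. Of 36 isoforms of splicing factor genes 2 rose, both of Hnrnpk, and 2 fell, of Hnrnpa1 and Snrpf (3 and 5 with edgeR, 0 and 4 with DESeq2). Hnrnpk isoforms were also the 4 splicing factor calls from zygote to E2C, all falls.

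The third comparison asked whether the use of new sites within a gene differed between stages, whatever the level of the gene. It took the share of the UMIs of a gene held by its isoforms with new sites, tested by limma on the arcsine square root, with a call at over 10 points and adjusted p under 0.05. From oocyte to zygote 0 of 1619 genes were called (0%, with 98 at an unadjusted p under 0.05), and from zygote to E2C 6 of 1389 (0.432%). From E2C to L2C 88 of 813 genes were called (10.8%), 45 up and 43 down. From L2C to 4-cell 7 of 1137 (0.616%), from 4-cell to 8-cell 8 of 1096 (0.730%) and from 8-cell to 16-cell 1 of 1140 (0.0877%) were called. The number from zygote to E2C was 1 without E2C replicate 3, and that from 4-cell to 8-cell was 3 without 8-cell replicate 4.

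Scamp1, a secretory carrier membrane protein, had the largest rise from E2C to L2C. Its share was 0, 0, 10.0, 20.0 and 26.7% in E2C embryos and 91.7, 100.0, 100.0 and 100.0% in the 4 L2C embryos with enough UMIs (difference 86.6 points, adjusted p = 1.05e-07). Ube2e3, an E2 ubiquitin-conjugating enzyme, had 0, 10.0 and 20.0% in 3 E2C embryos and 70.6, 79.3 and 85.7% in 3 L2C embryos (68.5 points, adjusted p = 1.11e-04). In the other direction, Hint1, a histidine triad protein, had 62.5, 71.4 and 83.3% in E2C and 0, 0, 0, 0 and 22.2% in L2C embryos (-68.0 points, adjusted p = 6.57e-07). Gorasp2, a Golgi stacking protein, had 53.3, 54.2, 73.7, 82.4 and 92.0% in E2C and 0, 0 and 12.5% in 3 L2C embryos (-66.9 points, adjusted p = 5.03e-06). In these 4 genes the E2C and L2C embryos did not overlap, and the shares of a single embryo rested on 5 to 42 UMIs.

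Sarnp, which takes part in mRNA export, rose one step earlier. Its share was 2.80 to 37.5% in 9 zygotes and 54.5, 64.3, 67.6, 70.6 and 83.3% in E2C embryos (50.9 points, adjusted p = 2.81e-07). Of the other genes called at this step, 3 rested on few UMIs at a stage. Rdx, an actin-membrane linker, had 0.923% in zygotes and 20.0, 40 and 80.0% in 3 E2C embryos of 5 UMIs each (adjusted p = 1.71e-05). Fer, a tyrosine kinase, had 87.7% in zygotes and 46.3% ± 31.6 in E2C embryos (adjusted p = 0.0147), a call lost without E2C replicate 2, 3 or 5. Fam160a1 had 30.0% in 3 zygotes and 0 of 50 UMIs in E2C embryos, which allows a share of up to 6.00% (adjusted p = 0.0147), and its call was lost without E2C replicate 3.

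Later steps had single genes. From L2C to 4-cell Kcmf1, an E3 ubiquitin ligase, went from 4.85 to 37.6% (adjusted p = 1.11e-04) and Smarcad1, a chromatin remodeller, from 3.81 to 34.3% (adjusted p = 0.0185). At the same step Gdf9, the oocyte growth factor, went from 17.7 to 1.85% (adjusted p = 0.0151) and Cript from 15.2 to 3.39% (adjusted p = 0.0418), and both calls were lost on the logit scale (0.199 and 0.153). The call of Cript was also lost without 4-cell replicate 3 or 4 (adjusted p = 0.198 and 0.0635). Gpbp1 went from 50.4% in 4-cell to 1.45% in 8-cell embryos (adjusted p = 3.41e-07), in step with its isoform above. Txnl4a, a protein of the spliceosome, had 37.0, 39.1, 61.5 and 71.4% in 4-cell and 2.90, 5.88, 6.00 and 10.3% in 8-cell embryos (adjusted p = 7.32e-04). Zcchc10 had 0 of 27 UMIs in 4-cell embryos, which allows up to 11.1%, and 10.3% in 8-cell embryos (adjusted p = 8.79e-04), a call lost on the logit scale (0.286).

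In 8 genes the share was called at a pair of steps, chosen here after their values were seen, and in each of them it rose first and fell later. The shares of Cript, Gpbp1 and Sod2 in E2C (1.08%, 0.854% and 1.05%) and of Kcmf1 in L2C embryos (4.85%) were under 10% before the rise. For these genes a fall of over 10 points could not come first. Sarnp was high in E2C embryos alone, at 68.1% ± 10.4 against 17.2% ± 11.2 in zygotes and 6.17% ± 5.82 in L2C embryos (E2C to L2C -61.9 points, adjusted p = 2.42e-10). Cript, with 1.08% in E2C embryos, was highest in L2C embryos (E2C to L2C 14.1 points, adjusted p = 1.94e-05). Gpbp1, Rplp0 and Sod2, the mitochondrial superoxide dismutase, were high in L2C and 4-cell embryos. Their means were 36.9%, 60.2% and 12.2% in L2C embryos, 50.4%, 63.6% and 12.2% in 4-cell embryos, and 1.45%, 19.5% and 1.70% in 8-cell embryos (4-cell to 8-cell adjusted p = 3.41e-07, 0.00666 and 0.0175). The call of Sod2 was lost without 4-cell replicate 2 or 8-cell replicate 3 or 4 (adjusted p = 0.0505, 0.103 and 0.114).

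Kcmf1 and Txnl4a peaked at the 4-cell stage. Kcmf1 had 37.6% ± 17.8 (n = 3) there and 0 of 45 UMIs in 4 8-cell embryos, which allows up to 6.67% (adjusted p = 3.01e-07), and Txnl4a had 22.5% ± 9.87 in L2C and 52.3% ± 16.9 in 4-cell embryos (adjusted p = 0.0465), a call lost without 4-cell replicate 1 or 3 (0.102 and 0.139) and on the logit scale (0.295). Rnf34, an E3 ubiquitin ligase, peaked last. Its share was 14.3, 14.3, 22.2 and 58.8% in 4-cell embryos and 62.5, 64.7 and 71.4% in 8-cell embryos (38.8 points, adjusted p = 8.79e-04). In 16-cell embryos it was 0, 0 and 7.69% (-63.6 points, adjusted p = 6.32e-09), with 5, 6 and 13 UMIs. Leaving out any of the 3 8-cell embryos with values left too few for the test.

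The last comparison asked whether dividing an oocyte changed what was read. The 16 samples held 129744 to 289774 UMIs, and 7821 of the isoforms with new sites were in this table, 1569 of them in all 16 samples. Their share of UMIs was 15.0% ± 0.398 (n = 4) in intact oocytes, 15.1% ± 0.198 (n = 6) in 1/2 oocytes and 15.0% ± 0.386 (n = 6) in 1/4 oocytes. The differences of 0.183, -0.143 and 0.0395 points were within the spread between samples (two-sided exact permutation tests, adjusted p = 0.666, 0.666 and 0.886). At 20000 UMIs per sample 1431 ± 32.5, 1446 ± 26.4 and 1432 ± 26.3 isoforms with new sites were detected (exact permutation tests, adjusted p = 0.657, 0.657 and 0.933). The names do not say whether pieces came from the same oocyte, in which case the samples would not be independent. Of the 1386 isoforms with new sites that had at least 10 UMIs in the oocytes of the stage series, 1380 (99.6%) were found again in these samples, as were 1353 of 2917 (46.4%) with no UMI in those oocytes. The same shares were 97.9% and 47.0% for isoforms that match an annotated one in full (FSM), 97.7% and 40.8% for ISM and 99.0% and 42.8% for NIC. Isoforms were matched between both tables by name alone, and whether a name stands for the same structure in each was not tested.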

How the data were processed

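Per the paper's methods, the authors used SMRT-Link for consensus reads, scISA-Tools for barcodes and UMIs, minimap2 for mapping to mm10, gffcompare for gene names, cDNA_Cupcake to collapse transcripts, and SQANTI3 to sort and filter isoforms, of which those in fewer than 5 cells were dropped. The stage table was deposited as CPM-type values, scaled by the authors to copies per 100,000 UMIs of each cell (isoforms sum to 84419 to 97144), with 1 column per cell and no barcodes. In all cells 100.0% of values were whole UMIs within 0.1. The authors deposited the table of split oocytes as UMI counts.

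The members and gene lists were chosen with earlier results of these data known. Stage and replicate come from cell names, the value of an embryo is the mean of its cells, and p-values measure the spread between these embryos. Shares and detected isoforms used cells thinned to 3000 UMIs (5 draws) and exact permutation tests over embryos, adjusted over 6 steps. Isoforms were tested with limma 3.58.1 (trend, array weights) on log2(value + 1) in 1 fit of 43 embryos, and gene shares with limma on genes with at least 5 UMIs in at least 3 embryos of both stages. Adjustment was by Benjamini-Hochberg across everything tested in a step. edgeR 4.0.16 and DESeq2 1.42.0 (R 4.3.3) were alternatives on recovered UMIs. Other steps used Python 3.11.15, numpy 2.4.6, pandas 2.3.3 and scipy 1.17.1. In counts simulated for E2C to L2C over 29409 isoforms, limma recovered 79 of 100 4-fold rises and 57 of 100 4-fold falls, with 4 unchanged isoforms called.

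Named isoforms are the 10 with the highest mean level and, per step, the 3 largest rises and the 3 largest falls, where there were as many, of called isoforms with at least 10 copies and no overlap between stages. Named genes are up to 2 per step and direction with the largest called change in share. Lists are described by counts. New sites were those absent from GENCODE M21 and from the other classes. A site could be read only where an M21 transcript or RefSeq promoter window covers it. Runs were taken from the study's cell lists. Alternatives chosen after seeing the data were leaving out the leading isoform or ribosomal protein genes, the tests by kind of new site, detection in split oocytes, and fits of oocytes and zygotes alone with or without the run. A withheld item is not reported here.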

Additional observations from a re-analysis of the deposited data

Results flagged for a closer look

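Groups of 4 to 10 samples were searched for a lowest or highest sample far from the rest of its group (Dixon's criterion), and 6 of 78 groups had one. For normally spread values chance gives about 1 in 20, but that rate does not hold for groups with tied values. In the groups of 3110009E18Rik, Gpbp1, Scamp1 and Hint1 below, the other samples were tied at 0 or at 100.0%, so any single other value was flagged. The share of UMIs in isoforms with new sites was 4.69% in oocyte replicate 7 and 5.17 to 5.67% in the other oocytes. 3110009E18Rik PB.3147.98 had 8.08 copies per 100,000 in L2C replicate 1 and 0 in the other L2C embryos. Gpbp1 PB.22119.100 had 0.459 copies in 8-cell replicate 4 and 0 in the other 8-cell embryos. Usp10 PB.73818.13 had 17.5 copies in 4-cell replicate 4 and 37.9 to 45 in the other 4-cell embryos. The share of Scamp1 UMIs in isoforms with new sites was 91.7% in L2C replicate 5 and 100.0% in the other 3 L2C embryos with enough UMIs. The same share of Hint1 was 22.2% in L2C replicate 3 and 0% in the other 4. The causes were not tested.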

How the results depend on the processing

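The alternatives were run for 19 called isoform fold changes and 26 called changes in a gene's share, and none of these turned direction. The call was kept in 223 of 241 alternatives for the fold changes and in 167 of 191 for the shares. Losses were in 5 of the fold changes, the rise of Uchl1 from oocyte to zygote among them, and in 9 of the shares. For the share of UMIs, zygote to E2C turned to -0.0498 without thinning, -0.0452 at 10000 UMIs and -0.0577 for isoforms in at least 20 cells. L2C to 4-cell turned to -0.0542 without thinning, -0.0687 at 10000 UMIs, -0.431 over multi-exon isoforms, and -0.171, -0.0584 and -0.0759 without the 10 leading isoforms, the leading isoform and ribosomal protein genes. In the same order, E2C to L2C became -1.70, -1.76 and -1.94 and 4-cell to 8-cell -1.40, -1.63 and -1.37, all called. 8-cell to 16-cell turned to 0.0155 without ribosomal protein genes. For isoforms detected, oocyte to zygote was -0.0649 and zygote to E2C -0.296 as a percentage of all isoforms detected, and for isoforms in at least 20 cells zygote to E2C was -0.880, L2C to 4-cell 3.23 and 8-cell to 16-cell 0.367. With 1 embryo left out, shares ranged over -0.0381 to 0.269 (zygote to E2C), -1.02 to -0.710 (E2C to L2C), -0.171 to 0.275 (L2C to 4-cell), -1.54 to -1.10 (4-cell to 8-cell), -0.783 to -0.319 (8-cell to 16-cell) and -1.05 to -0.872 (oocytes and zygotes against later embryos). Isoforms detected ranged over 2.62 to 9.50, -56.3 to -49.4, -7.07 to -1.35, -39.1 to -33.3 and -5.24 to 6.00 for the 5 steps from zygote on. Split oocytes ranged over -0.00335 to 0.301 (1/2) and -0.146 to 0.158 (1/4).

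Isoforms called, in the order of the 6 steps where a count moved by over 1.5 times, were 110 (oocyte to zygote), 56 (L2C to 4-cell) and 8 (8-cell to 16-cell) with a pseudocount of 0.1, and 2, 10, 172, 6, 30 and 1 with 5. Without array weights oocyte to zygote had 14 and 8-cell to 16-cell 8, and at an unadjusted p under 0.01 the latter had 47. edgeR gave 76 (oocyte to zygote), 85 (zygote to E2C), 10 (L2C to 4-cell), 73 (4-cell to 8-cell) and 1 (8-cell to 16-cell). DESeq2 gave 3, 45, 631, 0, 11 and 0, with 28 and 15 at an unadjusted p under 0.05 for the steps at 0. Oocytes and zygotes alone gave 2, with or without the run as a term. With 1 embryo left out the counts were 119 to 136 (zygote to E2C), 917 to 988, 43 to 122, 134 to 248 and 11 to 62 for the 5 steps from zygote on. Genes with a change in share were 36 (E2C to L2C), 2 (L2C to 4-cell), 3 (4-cell to 8-cell) and 0 (8-cell to 16-cell) with at least 10 UMIs, 47 and 4 for the first of these steps at 20 points, and 14 (zygote to E2C), 2 (L2C to 4-cell) and 16 (4-cell to 8-cell) on the logit scale. With 1 embryo left out they were 1 to 5, 72 to 87, 5 to 9, 3 to 11 and 0 to 1. The cause was not tested, beyond fewer samples or genes in the fit. No paired analysis was possible because replicate numbers of different stages name different embryos. Depth limits shares of genes with few UMIs, where 1 UMI of 5 is 20 points.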

Other observations

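The oocytes of the stage series and the intact oocytes of the split experiment were in separate tables, and they differed in how UMIs fell into classes. Isoforms with new sites held 5.41% of UMIs in the stage series oocytes and 15.0% in the intact oocytes, counted over the same isoform names. FSM isoforms held 66.0% and 37.5%, ISM isoforms 15.9% and 32.6%, and NIC isoforms 4.89% and 6.83%. Across isoforms, which are not independent replicates, the log2 levels of the 2 sets had a Pearson r of 0.353 over 7875 isoforms with new sites and 0.695 over FSM isoforms, while gene sums had 0.835 over 9190 genes. Pttg1 PB.10817.22 had 0.372 copies per 100,000 in the stage series oocytes and 266.9 in the intact oocytes, while all isoforms of Pttg1, a regulator of sister chromatid separation, summed to 608.2 and 908.5 copies. The cause was not tested, and levels of single isoforms were compared only within a table.

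Between sequencing runs the tables also differed for some isoforms. Among oocytes and zygotes, with the stage in the fit, 37 of 3310 isoforms with new sites (1.12%) and 568 of all 29409 (1.93%) differed between run 3 and run 1 by limma at the same limits. Rplp0 PB.58793.18 was at 0 to 0.769 copies in the oocytes of run 1 and at 2.15 to 5.58 in those of run 3. The runs of the later embryos were not used here, so the part of the run in the steps from zygote on was not tested.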
